A study of Mus musculus with 24 samples.

Results

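Immortalized and proliferating mouse fibroblasts, both under the solvent dimethyl sulfoxide (DMSO), were compared across all genes in 6 of the 24 RNA-seq libraries of the series. The libraries were chosen by their labels alone, 3 for the immortalized and 3 for the proliferating cells. Immortalized cells carried the SV40 T antigen, brought into low-passage proliferating fibroblasts with the retroviral construct pBABE-SV40T, and were used up to passage 10. Proliferating cells were the primary fibroblasts themselves, plated sparsely and collected before they filled the dish. Both were tail fibroblasts of male C57BL/6J mice 4 weeks old, both came from 1 originating pool, and both received 0.1% DMSO for 8 h. Whether the 3 immortalized libraries come from 1 transduction or several is not stated. What the virus, the seeding at low density and the extra passages did cannot be told apart from what the T antigen did. Parallel libraries received the proteasome inhibitor MG132 for the same time, and the series also holds quiescent and senescent fibroblasts. The labels do not say which libraries came from separate cultures, so the p-values measure the spread between libraries, which may be technical.

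SV40 makes a large T antigen, which binds the p53 protein and the RB family of pocket proteins, and a small t antigen, which binds the phosphatase PP2A. RB proteins hold back the E2F factors that switch on genes of DNA replication, while p53 switches on genes of cell cycle arrest and cell death, such as Cdkn1a. Dermal and tail fibroblasts are known above all for building the extracellular matrix, and like most cells they can answer viral nucleic acid with type I interferon, which turns on a large set of antiviral genes.

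Levels are TPM (transcript abundance per gene length, scaled to 1000000 in each library), so the depth of the libraries is unknown. Between 16751 and 17640 of the 19880 genes were above 0 in the immortalized libraries, and 17505 to 17611 in the proliferating ones. Of 57 markers of other cell types, 31 stayed under 1 TPM in all 6 libraries, and Vim, the mesenchymal intermediate filament, stood at 15470, 13670 and 12710 TPM in immortalized and 13900, 14920 and 9455 TPM in proliferating libraries. Vim overlapped between the groups, but of 19 tested fibroblast identity genes 6 were lower and 1 higher in the fit given below. Over all tested genes 17.7% were lower and 18.0% higher. Means of that list were 6.02, 5.76 and 6.03 in immortalized and 6.20, 6.19 and 6.36 in proliferating libraries, as log2(scaled TPM + 1). In bulk RNA, fewer cells of a type and less RNA per cell cannot be told apart. The table holds mouse genes only, so the T antigen transcript itself was not measured here.

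A pair of libraries stood apart before any comparison. Across 13489 tested genes, the library of the series most like proliferating 3 was a quiescent library under MG132 (Spearman correlation 0.988), and its correlation with the other proliferating libraries was as low as 0.969. Its targets of heat shock factor 1, the factor that answers misfolded protein, averaged 8.41 on the log2(scaled TPM + 1) scale, against 6.39 to 7.80 in the other 11 DMSO libraries and 8.86 to 11.2 in the 12 MG132 libraries. Genes encoded in mitochondria made up 2.59% of its TPM, against 5.49% and 5.03% in proliferating 1 and 2. Immortalized 2 was most like immortalized 1, but only at 0.976, whereas immortalized 1 and 3 reached 0.993. It had the fewest genes above 0, 16751, and the highest levels of mitotic genes. Results are therefore given with and without these libraries.

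In the fit, 2434 genes were higher in immortalized than in proliferating cells and 2385 were lower, 18.0% and 17.7% of those tested (limma, Benjamini-Hochberg adjusted p under 0.05). The median log2 difference over all tested genes was 0.024. A difference beyond 2-fold was met by 519 of the higher and 906 of the lower genes. Without proliferating 3 the counts were 2253 and 2236, and without immortalized 2 they were 1388 and 1708. Of the genes called with all libraries, 1822 higher and 1928 lower ones were called again without proliferating 3, and 1346 and 1657 without immortalized 2, with 0 genes turning direction in either fit. With both libraries left out, 1662 were higher and 1811 lower, of which 1218 and 1517 were among the calls with all libraries. When only the 6 libraries compared were fitted, 970 were higher and 1403 lower. In that fit 46 of 47 interferon-stimulated genes, 31 of 49 replication genes, 11 of 47 DNA repair genes and 3 of 60 mitotic genes were higher. Lower were 19 of 50 p53 targets, 12 of 28 collagen chain genes, 12 of 29 protease genes and 6 of 26 myofibroblast genes. List sizes are those tested with all libraries. The mitotic count was a smaller share than that of higher genes over all genes in that fit. The levels of the 2 groups did not overlap for 5567 of the 13489 tested genes (41.3%), so a gene whose groups stand apart is common here.

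**Figure D1:**
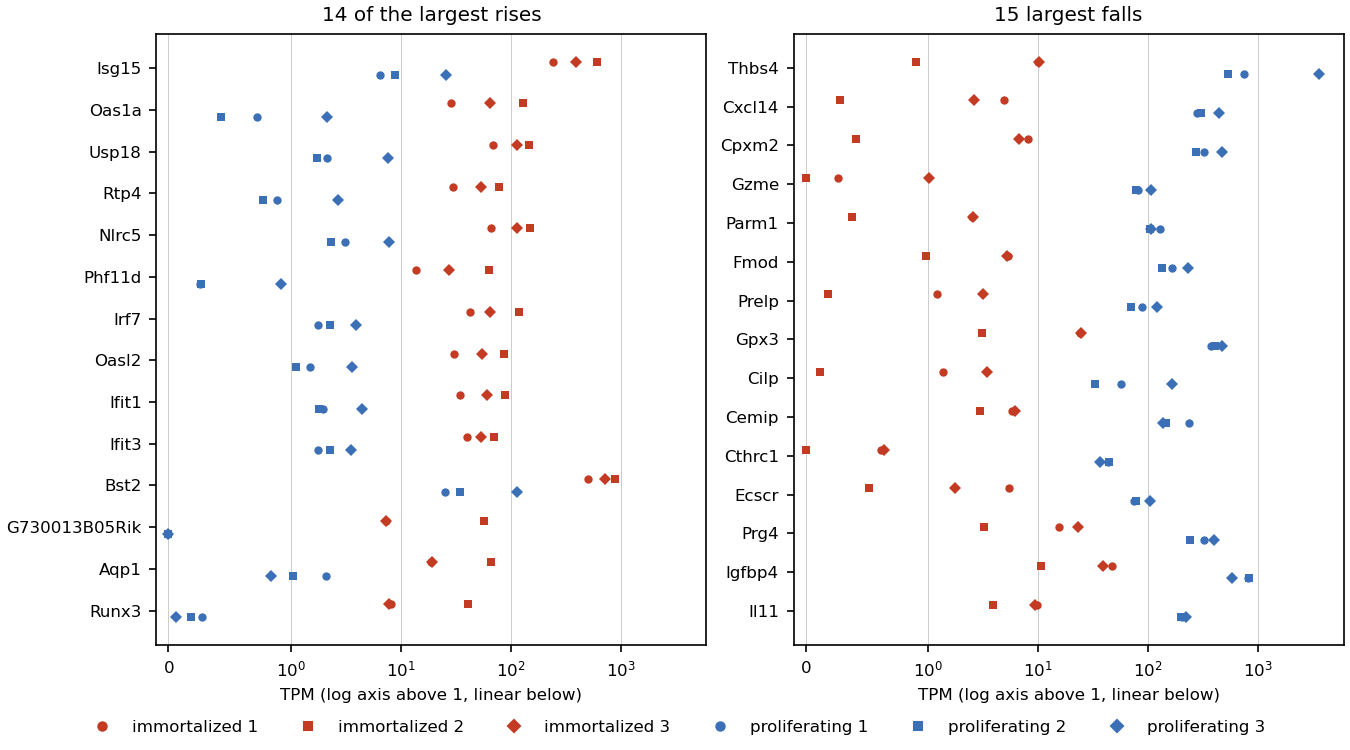
Level in TPM (horizontal axis, logarithmic above 1) of 14 genes among the largest rises and the 15 largest falls in each immortalized (red) and proliferating (blue) DMSO library, 1 symbol shape per replicate number. The groups do not overlap by the rule that chose these genes; Thbs4 stands at 0.904 to 10.1 TPM in immortalized and 537 to 3608 TPM in proliferating libraries.

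The largest rises, among called genes with at least 10 TPM on average in a group and no overlap between groups, were mostly antiviral genes. They held Isg15, Oas1a, Usp18, Rtp4, Irf7, Oasl2, Ifit1, Ifit3 and Bst2 of the list of interferon-stimulated genes, together with Nlrc5 and Phf11d. Runx3, a runt family transcription factor, had 8.17, 41.0 and 7.90 TPM in immortalized and 0.275, 0.184 and 0.0632 TPM in proliferating libraries, and Aqp1, a water channel, had 18.8, 66.0 and 19.4 TPM in immortalized and 2.11, 1.06 and 0.841 TPM in proliferating libraries. G730013B05Rik was listed at 0 in every proliferating library and at 7.34, 56.6 and 7.28 TPM in the immortalized ones. Immortalized 2 was highest for these 3 genes, as it was for the other rises named here, and the groups are apart by the rule of choice.

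The 15 largest falls were secreted or matrix genes for the most part. Thbs4, a thrombospondin of tendon and muscle matrix (chr13:92751590-92794818, GRCm38), had 9.95, 0.904 and 10.1 TPM in immortalized and 751, 537 and 3608 TPM in proliferating libraries (log2 difference -7.5, standard error 0.97, adjusted p = 8.8e-06). Proliferating 3 was the highest of its group for Thbs4, and immortalized 2 the lowest of its own. Cxcl14, a chemokine of skin and stroma, had 4.87, 0.282 and 2.62 TPM in immortalized and 279.9, 301 and 441 TPM in proliferating libraries (log2 difference -6.75, adjusted p = 1.7e-06). Il11, a cytokine that fibroblasts make under TGF-beta, had 9.73, 3.86 and 9.34 TPM in immortalized and 202, 199.5 and 222 TPM in proliferating libraries (log2 difference -4.66, adjusted p = 1.1e-09), with immortalized 2 lowest and the 3 proliferating libraries close together. The others were Cpxm2, Gzme, Parm1, Fmod, Prelp, Gpx3, Cilp, Cemip, Cthrc1, Ecscr, Prg4 and Igfbp4, with log2 differences between -6.18 and -4.69. All 29 of the rises and falls named here were still called without proliferating 3 and without immortalized 2.

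Among the partners of the T antigen and their regulators, the tumour suppressor genes themselves differed little in RNA. Trp53, which codes for p53, had 186, 188 and 186 TPM in immortalized and 152, 163 and 156 TPM in proliferating libraries (log2 difference 0.24, standard error 0.09, adjusted p = 0.04), a small rise with the groups apart. It was not called without immortalized 2 (adjusted p = 0.15). Rb1 had 62.9, 90.5 and 70.8 TPM in immortalized and 69.4, 54.5 and 32.0 TPM in proliferating libraries (log2 difference 0.56, adjusted p = 0.037), with overlapping groups, and was not called when either library that stood apart was left out. Rbl1, the pocket protein p107, had 9.49, 29.1 and 10.2 TPM in immortalized and 6.83, 5.36 and 3.33 TPM in proliferating libraries (log2 difference 1.33, adjusted p = 0.0059; 0.052 without immortalized 2), and Rbl2, or p130, had 7.99, 6.38 and 7.57 TPM in immortalized and 7.45, 5.6 and 4.04 TPM in proliferating libraries (log2 difference 0.33, adjusted p = 0.1). Ppp2r1a, the scaffold subunit of PP2A, Cul7, a ubiquitin ligase scaffold, the mitotic kinase gene Bub1 and the chaperone gene Hspa8, all coding for T antigen partners, did not pass the test, with log2 differences of 0.09, -0.32, 1.46 and 0.09. Cul7 was called lower without proliferating 3 (log2 difference -0.49, adjusted p = 0.0096) and without both libraries that stood apart (adjusted p = 0.021). Hspa8 was called higher without both (log2 difference 0.66, adjusted p = 0.04).

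The inhibitors of cyclin-dependent kinases went in opposite directions. Cdkn1a, which codes for p21 and is the best known target of p53, had 468, 310.5 and 452 TPM in immortalized and 926, 978 and 972 TPM in proliferating libraries (log2 difference -1.25, standard error 0.14, adjusted p = 2e-06). Cdkn2a, the locus of p16 and p19ARF, had 289, 306 and 265 TPM in immortalized and 105, 114 and 112 TPM in proliferating libraries (log2 difference 1.36, standard error 0.19, adjusted p = 2.2e-05). Both genes separated the groups, Cdkn1a with the immortalized libraries below and Cdkn2a with them above. Cdkn2b, the neighbour of Cdkn2a that codes for p15, had 38.2, 22.8 and 31.8 TPM in immortalized and 69, 74.0 and 64.0 TPM in proliferating libraries (log2 difference -1.16, adjusted p = 3.8e-06). The table gives 1 value for Cdkn2a, so p16 and p19ARF transcripts were not separated.

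Of 50 tested targets of p53, 28 fell and 3 rose, with a median log2 difference of -0.49 against 0.024 over all genes. The list's mean level was 4.48, 4.20 and 4.40 in immortalized and 4.98, 5.01 and 4.87 in proliferating libraries (log2 scale), and the groups did not overlap. Largest among the falls were Trp53inp1, an autophagy and stress protein gene, with 4.21, 1.90 and 4.51 TPM in immortalized and 17.3, 11.5 and 18.1 TPM in proliferating libraries, and Thbs1, an antiangiogenic thrombospondin, with 1058, 1411 and 879.6 TPM in immortalized and 6749, 5286 and 1711 TPM in proliferating libraries. Fas, the death receptor gene, had a log2 difference of -1.32 and Ccng1, cyclin G1, one of -0.99, both called. Mdm2, the ubiquitin ligase of p53 and itself a target, had 97.8, 91.0 and 100.4 TPM in immortalized and 106, 105 and 97.7 TPM in proliferating libraries (log2 difference -0.1, adjusted p = 0.33), so its groups overlapped. The members that rose were Ddb2, a DNA damage sensor, Apaf1, a scaffold of caspase activation, and Sesn1, a stress protein, with log2 differences of 0.54, 0.52 and 0.51. The groups overlapped for Apaf1, which was not called without proliferating 3 or without immortalized 2. Without proliferating 3 the list had 26 falls, and without immortalized 2 it had 21.

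Genes of DNA replication were higher almost throughout. Of 49 tested genes of replication and S phase, 43 rose and 0 fell, with a median log2 difference of 1.27. The mean of the list was 4.80, 5.86 and 4.62 in immortalized and 3.91, 4.10 and 3.54 in proliferating libraries, so that the groups stood apart with immortalized 2 well above the rest. Prim1, the catalytic subunit of primase, had 39.7, 121 and 35.8 TPM in immortalized and 9.20, 12.4 and 6.72 TPM in proliferating libraries (log2 difference 2.46, standard error 0.50, adjusted p = 0.00088). Lig1, the ligase that joins Okazaki fragments, had 31.8, 76.0 and 27.1 TPM in immortalized and 11.4, 13.0 and 5.67 TPM in proliferating libraries, and Mcm5, a subunit of the replicative helicase, had 53.8, 136 and 46.5 TPM in immortalized and 22.3, 26.3 and 13.9 TPM in proliferating libraries. Pcna, the sliding clamp, had 372, 538 and 447 TPM in immortalized and 152, 170.1 and 239 TPM in proliferating libraries (log2 difference 1.28, adjusted p = 0.00032). E2f1, one of the factors released by RB, had 32.5, 38.9 and 28.5 TPM in immortalized and 18.2, 17.5 and 12.1 TPM in proliferating libraries (log2 difference 1.02, adjusted p = 0.00023), again with no overlap.

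The size of this set depended on the libraries that stood apart. Without proliferating 3, 31 of the 49 replication genes were called higher (median log2 difference 1.09), 26 were without immortalized 2 (0.88), and 14 were without both (0.76). Over all genes these fits called 2253, 1388 and 1662 higher, with 13489 tested in the full fit. Of 47 genes of DNA repair and the replication checkpoint, 34 rose and 0 fell with all libraries. Called higher were 15 without proliferating 3, 11 without immortalized 2 and 6 without both, the last a share near that over all genes. Timeless, a fork protection factor, led them with 8.90, 42.0 and 8.65 TPM in immortalized and 3.24, 3.52 and 1.52 TPM in proliferating libraries. Ung, which removes uracil from DNA, had 13.5, 24.4 and 13.8 TPM in immortalized and 3.81, 3.75 and 3.58 TPM in proliferating libraries (log2 difference 1.88, adjusted p = 4.3e-05), with the proliferating libraries close together and all immortalized ones above them. Of 25 E2F and RB family genes, 14 rose and 2 fell, and 8 rose without both libraries. Ccnd2, cyclin D2, and E2f3 were the falls, at -0.95 and -0.32, with overlapping groups for E2f3.

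Genes of mitosis separated the groups by 1 measure and not by another. Of 60 tested, 15 rose and 0 fell although the median log2 difference was 1.16. The mean of the list was 4.67, 6.36 and 4.28 in immortalized and 4.23, 4.46 and 3.16 in proliferating libraries, so immortalized 2 stood alone at the top, proliferating 3 alone at the bottom, and the other 4 overlapped. Their summed share of TPM was 0.260%, 0.734% and 0.216% in immortalized, against 0.186%, 0.214% and 0.106% in proliferating libraries, without overlap but with immortalized 3 next to proliferating 2 (exact permutation test, two-sided p = 0.1, the smallest possible). Without proliferating 3, 4 mitotic genes were called higher, and without immortalized 2 there was 1. Without both, the median was 0.08 and 2 genes were called. Over all genes these fits called 2253, 1388 and 1662 higher, so each mitotic count was a smaller share than that over all genes. Mki67, the antigen Ki-67 of cycling cells, had 14.7, 77.4 and 10.1 TPM in immortalized and 17.5, 17.8 and 2.11 TPM in proliferating libraries (log2 difference 1.21, adjusted p = 0.17). Top2a, the topoisomerase that untangles chromosomes, had 42.1, 198 and 29.6 TPM in immortalized and 41.0, 41.2 and 7.55 TPM in proliferating libraries (log2 difference 1.37, adjusted p = 0.13). Cdk1, the kinase that drives entry into mitosis, had 39.0, 125 and 26.5 TPM in immortalized and 21.2, 26.1 and 7.74 TPM in proliferating libraries and was called narrowly (adjusted p = 0.0497), and not when either of these libraries was left out.

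**Figure D2:**
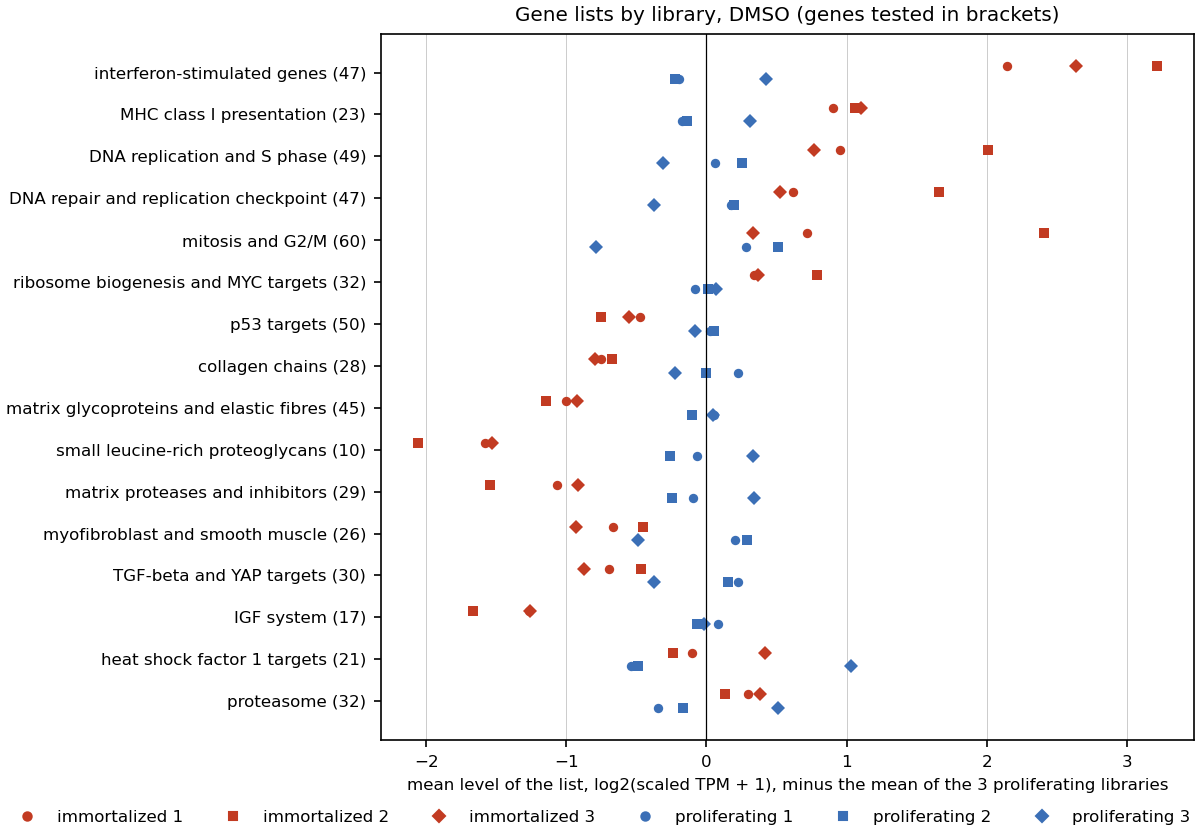
Mean level of 16 gene lists in each immortalized (red) and proliferating (blue) DMSO library, as the difference on the log2(scaled TPM + 1) scale from the mean of the 3 proliferating libraries. The interferon-stimulated genes reach 4.58, 5.65 and 5.07 in immortalized libraries on that scale before subtraction, against 2.24, 2.21 and 2.86 in proliferating ones, while the mitotic genes and the heat shock factor 1 targets overlap between the groups.

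Interferon-stimulated genes had the largest median difference of the 36 lists. Of 47 tested, 46 rose and 0 fell, with a median log2 difference of 2.44. The exception was Gbp2, a guanylate-binding protein gene, at -0.36 (adjusted p = 0.08). The genes of the list took 0.478%, 0.683% and 0.605% of TPM in immortalized, against 0.105%, 0.109% and 0.168% in proliferating libraries. The exact permutation test on these shares gave p = 0.1 (two-sided), the smallest that 3 against 3 libraries allow. Leaving out proliferating 3 gave 46 higher genes, and leaving out immortalized 2 gave 45. Proliferating 3 was the highest and immortalized 1 the lowest of their groups for this list, yet the groups did not overlap. Quiescent fibroblasts under DMSO, which the design sets against the same proliferating libraries, had list means of 3.95, 4.17 and 4.06, between the immortalized and the proliferating libraries.

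Isg15, a ubiquitin-like protein that is attached to others in infected cells, had 240.4, 611 and 391 TPM in immortalized and 6.49, 8.92 and 25.9 TPM in proliferating libraries (log2 difference 4.92, standard error 0.53, adjusted p = 9.5e-07). Oas1a, which makes the 2-5A signal for RNA decay, had 28.4, 130.1 and 65.1 TPM in immortalized and 0.721, 0.428 and 2.13 TPM in proliferating libraries (log2 difference 4.91, standard error 0.50, adjusted p = 5.8e-07). Usp18, which strips Isg15 from proteins and dampens the receptor, had 68.3, 146 and 114 TPM in immortalized and 2.14, 1.72 and 7.67 TPM in proliferating libraries (log2 difference 4.6, adjusted p = 1.5e-07). Every immortalized library exceeded every proliferating one for each of them, as the rule that chose the largest rises required. Ifit1, which binds foreign RNA, and Ifit3 rose by 3.98 and 3.93, and Bst2, which tethers budding virus, by 3.85.

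The factors that carry the interferon signal to the nucleus were part of the rise. Stat2, a partner of the activated receptor, had 230.5, 466 and 400 TPM in immortalized and 33.1, 30.8 and 54.1 TPM in proliferating libraries (log2 difference 3.16, adjusted p = 4.1e-07). Irf9, which gives the complex it joins its hold on DNA, had 32.8, 62.9 and 50 TPM in immortalized and 8.53, 7.72 and 11.5 TPM in proliferating libraries (log2 difference 2.23, adjusted p = 1.7e-06). Every immortalized library exceeded every proliferating one for both genes. Irf7, the factor that amplifies interferon production, had 42.5, 118 and 64.7 TPM in immortalized and 1.78, 2.28 and 3.91 TPM in proliferating libraries (log2 difference 4.25, adjusted p = 8.8e-08). The receptor subunits moved the other way: Ifnar1 had 24.9, 20.8 and 23.7 TPM in immortalized and 37.0, 32.2 and 30.7 TPM in proliferating libraries (log2 difference -0.51, adjusted p = 0.0011), and Ifnar2 fell by 0.56 on the log2 scale but was not called without proliferating 3 or without immortalized 2. Of 31 tested genes of nucleic acid sensing and interferon signalling, 18 rose and 3 fell, and some of them are also members of the interferon-stimulated list.

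Promoter windows of 250 bases before to 50 after the start of each gene, from RefSeq on GRCm38.p6, were searched on both strands for GAAANNGAAA, the core of the element that IRF proteins bind. It was found in 20 of the 35 interferon-stimulated genes with a window (57.1%), against 389 of 10435 tested genes (3.73%). Among all genes with a window, 99 of 1970 called higher (5.03%) and 73 of 1796 called lower (4.06%) held it. The windows of Irf7 and Oasl2, also strong rises, held no match. The windows of 3 members are shown as strong rises that carry the element, with matches to GAAANNGAAA or its reverse complement in capitals and adjacent matches run together. They are Isg15 at chr4:156200769-156201068 (minus strand), Oas1a at chr5:120907476-120907775 (minus strand) and Ifit3 at chr19:34583279-34583578 (plus strand).
Isg15: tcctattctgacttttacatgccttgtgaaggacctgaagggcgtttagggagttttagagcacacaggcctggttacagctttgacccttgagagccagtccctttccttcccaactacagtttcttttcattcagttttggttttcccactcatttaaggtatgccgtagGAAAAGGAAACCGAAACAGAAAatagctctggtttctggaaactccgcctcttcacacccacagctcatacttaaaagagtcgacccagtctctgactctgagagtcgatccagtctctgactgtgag
Oas1a: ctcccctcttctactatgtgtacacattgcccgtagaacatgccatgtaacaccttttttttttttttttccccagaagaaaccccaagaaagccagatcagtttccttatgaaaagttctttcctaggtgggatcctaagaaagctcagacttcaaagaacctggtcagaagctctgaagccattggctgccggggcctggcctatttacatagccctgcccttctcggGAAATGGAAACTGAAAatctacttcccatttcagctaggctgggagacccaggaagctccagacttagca
Ifit3: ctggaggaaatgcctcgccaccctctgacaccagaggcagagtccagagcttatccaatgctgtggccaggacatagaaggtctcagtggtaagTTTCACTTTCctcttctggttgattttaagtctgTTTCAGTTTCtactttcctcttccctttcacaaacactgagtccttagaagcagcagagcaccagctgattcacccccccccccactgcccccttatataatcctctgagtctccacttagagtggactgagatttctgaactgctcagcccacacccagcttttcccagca
Overlapping matches began 78, 72 and 66 bases before the start in Isg15, and 20 and 14 bases before it in Oas1a. A match is a description of these letters and was not tested as a binding site.

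The same windows were searched for the E2F forms TTTCCCGC, TTTGGCGC, TTTCGCGC and TTTGCCGC on both strands. A match was found in 15 of 38 replication genes with a window (39.5%), 4 of 47 mitotic genes (8.51%) and 486 of 10435 tested genes (4.66%). The windows of Prim1, Pcna, E2f1 and Timeless held no match. Mcm5, a replication gene, at chr8:75109259-75109558 (plus strand) and Rbl1, a pocket protein gene, at chr2:157204485-157204784 (minus strand) are shown as called genes with a match, again in capitals.
Mcm5: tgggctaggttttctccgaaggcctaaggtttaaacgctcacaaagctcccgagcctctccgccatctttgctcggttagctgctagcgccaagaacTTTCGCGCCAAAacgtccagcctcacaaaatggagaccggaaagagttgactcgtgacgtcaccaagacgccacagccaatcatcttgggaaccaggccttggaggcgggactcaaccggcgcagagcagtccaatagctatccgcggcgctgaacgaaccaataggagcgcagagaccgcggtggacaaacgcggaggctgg
Rbl1: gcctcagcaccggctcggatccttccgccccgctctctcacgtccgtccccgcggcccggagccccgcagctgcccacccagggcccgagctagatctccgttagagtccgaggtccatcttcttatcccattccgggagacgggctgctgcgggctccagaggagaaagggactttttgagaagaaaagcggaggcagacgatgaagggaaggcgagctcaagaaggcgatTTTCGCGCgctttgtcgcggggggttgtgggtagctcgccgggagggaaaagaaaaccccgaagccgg
In Mcm5 a pair of overlapping matches began 153 and 149 bases before the start, and in Rbl1 a single one began 18 bases before it. None of the 38 replication genes held the interferon element.

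Antigen presentation by MHC class I rose with the antiviral genes. Of 23 tested genes, 16 rose and 1 fell, with a median log2 difference of 0.81. Nlrc5, the transactivator of class I genes, had 66.7, 148 and 113 TPM in immortalized and 3.08, 2.33 and 7.80 TPM in proliferating libraries (log2 difference 4.37, adjusted p = 1.1e-07). B2m, the invariant light chain, had 1286, 1350 and 1486 TPM in immortalized and 402, 430.2 and 858 TPM in proliferating libraries, and Tap1, a subunit of the peptide transporter, had 22, 29.8 and 21.4 TPM in immortalized and 6.44, 6.74 and 5.21 TPM in proliferating libraries. Each separated the groups, Nlrc5 by the rule that chose it, and proliferating 3 was the highest of its group for Nlrc5 and B2m but not for Tap1. H2-K1 and H2-D1, the classical heavy chains, and Psmb8 and Psmb9, subunits of the immunoproteasome, rose by 1.75, 2.03, 1.53 and 1.46. Class I genes are close copies of each other, so the split of reads among them is uncertain. Tap2, the partner of Tap1, was the member that fell (log2 difference -0.57, adjusted p = 0.048), and was not called without proliferating 3 or without immortalized 2.

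The matrix programme was lower. Of 28 tested collagen chain genes, 18 fell and 4 rose, with a median log2 difference of -0.82. Collagen chains took 0.813%, 0.854% and 0.808% of TPM in immortalized, against 1.95%, 1.60% and 1.12% in proliferating libraries (exact permutation test, two-sided p = 0.1, the smallest possible). Col1a1 had 1507, 1474 and 1301 TPM in immortalized and 3576, 3327 and 1639 TPM in proliferating libraries (log2 difference -0.92, adjusted p = 0.0013), and Col1a2, the other chain of type I collagen, had 3537, 3614 and 3652 TPM in immortalized and 8367, 6721 and 5705 TPM in proliferating libraries (log2 difference -0.93, adjusted p = 2.3e-05). Proliferating 3 was lowest of its group for both but still above every immortalized library. Col3a1, the fibril collagen of young and pliable tissue, had 135, 57.5 and 109 TPM in immortalized and 901, 710.2 and 430.5 TPM in proliferating libraries (log2 difference -2.77, standard error 0.34, adjusted p = 4.1e-06). The rises were Col8a1, Col6a3, Col4a3 and Col18a1. Without proliferating 3 the counts were 18 lower and 1 higher, and they were 16 and 0 without immortalized 2.

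Enzymes that process and crosslink collagen followed, with 14 of 24 lower and 3 higher. Loxl2, a lysyl oxidase, had 117, 50.5 and 114 TPM in immortalized and 934, 719.9 and 688 TPM in proliferating libraries (log2 difference -3.13, adjusted p = 9.3e-07), and Lox had 762, 724 and 821 TPM in immortalized and 2636, 1865 and 2030 TPM in proliferating libraries (log2 difference -1.49, adjusted p = 4.1e-07). Both separated the groups by a wide margin, while their relative Loxl3 rose by 1.06. Of 45 matrix glycoproteins and elastic fibre genes, 26 fell and 4 rose (median log2 difference -0.64). The rises were led by Ltbp1, which stores latent TGF-beta in the matrix, with 79.3, 175 and 79.8 TPM in immortalized and 38.7, 35.2 and 20.9 TPM in proliferating libraries, and by Postn, periostin, with 123, 447 and 209.6 TPM in immortalized and 64.9, 53 and 100.2 TPM in proliferating libraries, though Postn was not called without immortalized 2 (adjusted p = 0.061). Of 10 small leucine-rich proteoglycan genes, 8 fell and 1 rose. Fmod, which binds collagen fibrils, had 5.29, 0.98 and 5.23 TPM in immortalized and 166, 133 and 232 TPM in proliferating libraries. Prelp, a relative of Fmod, had 1.21, 0.183 and 3.19 TPM in immortalized and 88.7, 69.5 and 121 TPM in proliferating libraries. The groups of Fmod and Prelp stand apart by the rule that chose the largest falls. Dcn, decorin, had a log2 difference of -2.52.

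Proteases that cut the matrix, and their inhibitors, were lower too, with 19 of 29 called lower and 1 higher (median log2 difference -1.04). Mmp9, a gelatinase, had 8.01, 3.97 and 8.80 TPM in immortalized and 135, 126 and 64.5 TPM in proliferating libraries (log2 difference -3.76, adjusted p = 1.4e-08). The exception was Mmp2, the other gelatinase, with 219, 322 and 230 TPM in immortalized and 80.0, 75.4 and 69.2 TPM in proliferating libraries (log2 difference 1.75, adjusted p = 5.8e-07). Both held their groups apart, so the gelatinase genes went in opposite directions. Timp3, a matrix-bound inhibitor, had a log2 difference of -2.82. Of 14 tested genes of tendon and cartilage, 9 fell, Thbs4, Fmod and Prg4 among them, and 2 rose, which were the transcription factors Scx, of tendon, and Sox9, of cartilage, at 1.48 and 0.59. Several genes belong to more than 1 of these lists.

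Contractile genes and genes that TGF-beta or YAP turn on showed the same direction. Of 26 tested genes of myofibroblasts and smooth muscle, 13 fell and 1 rose, and of 30 targets of TGF-beta and YAP 16 fell and 0 rose. Mylk, the kinase of myosin light chain, had 5.28, 1.45 and 3.75 TPM in immortalized and 125, 117 and 70.6 TPM in proliferating libraries (log2 difference -4.57, standard error 0.34, adjusted p = 1.2e-08), and Ankrd1, a YAP target, had 12, 11 and 8.55 TPM in immortalized and 79.9, 97.6 and 26.1 TPM in proliferating libraries (log2 difference -2.38, adjusted p = 2.5e-05). Proliferating 3 lay lowest of its group for both and had a myofibroblast list mean of 7.32, inside the immortalized range of 6.88 to 7.36. Acta2, the smooth muscle actin of myofibroblasts, had 5534, 5202 and 3110 TPM in immortalized and 9577, 12690 and 3106 TPM in proliferating libraries (log2 difference -0.69, adjusted p = 0.22), and it was called lower without proliferating 3 (adjusted p = 0.018). Pericyte and skeletal muscle markers had lower list means beside this list. The means overlapped for keratinocyte markers (1 of 4 higher, 0 lower) and for macrophage and leukocyte markers (1 of 5 higher, 2 lower). Of 4 tested markers each, 1 endothelial, 2 adipocyte and 2 Schwann and melanocyte markers were called lower and 0 higher. Of 4 tested pericyte markers 2 fell, with list means of 2.54, 2.71 and 2.38 in immortalized and 3.84, 3.79 and 3.0 in proliferating libraries, and summed levels of 51.0 to 112 TPM in immortalized and 71.9 to 244 TPM in proliferating ones. Of the skeletal muscle markers, Des and Acta1 were tested and 1 fell, with means of 4.01, 4.25 and 3.81 in immortalized and 5.02, 5.24 and 4.32 in proliferating libraries. The summed skeletal muscle levels overlapped, at 132 to 323 TPM in immortalized and 119 to 424 TPM in proliferating libraries. The pericyte markers Kcnj8 and Abcc9 stayed under 1 TPM in all 6 libraries. The part of such cells in the fall of the contractile list was not tested. Tgfb1 itself fell by 1.40 on the log2 scale.

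The insulin-like growth factor system was another lower group, with 10 of 17 called lower and 1 higher. Igf1 had 1.65, 0.119 and 1.21 TPM in immortalized and 13.3, 10.2 and 10.3 TPM in proliferating libraries (log2 difference -2.63, adjusted p = 7.3e-06). Igfbp4, a gene of an IGF binding protein, had 46.5, 10.6 and 39.0 TPM in immortalized and 806, 818 and 579 TPM in proliferating libraries. Igfbp2, of the same family, had 10.7, 1.96 and 9.19 TPM in immortalized and 153, 166 and 128 TPM in proliferating libraries. Igfbp3, the main carrier of IGF in blood, had a log2 difference of -2.41 and was not called when either library that stood apart was left out. The groups did not overlap for Igf1 and Igfbp2, nor for Igfbp4, where the rule that chose the largest falls required it. Immortalized 2 was the lowest library for all of them.

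Of 37 tested genes of the senescence-associated secretory and NF-kB programmes, 7 rose and 14 fell, a share of rises near the 18.0% over all tested genes. The rises were led by Ccl5 and Cxcl10, both also known to answer interferon. Ccl5 had 15.4, 37.0 and 18.4 TPM in immortalized and 0.912, 1.01 and 2.92 TPM in proliferating libraries. Cxcl10 had 10.6, 37.1 and 14.1 TPM in immortalized and 0.87, 0.884 and 1.5 TPM in proliferating libraries, and immortalized 2 was highest for both. Cxcl12, which guides CXCR4-bearing cells, had 95.4, 214 and 90.2 TPM in immortalized and 40.6, 39.3 and 24.4 TPM in proliferating libraries (log2 difference 1.82, adjusted p = 0.00054). The falls were led by the monocyte attractants Ccl7 and Ccl2, with 14.4, 3.30 and 17.2 TPM in immortalized and 197, 171 and 445 TPM in proliferating libraries for Ccl7. Ccl2 had 22.1, 4.78 and 33.4 TPM in immortalized and 131, 100.4 and 569.9 TPM in proliferating libraries (log2 difference -3.56, adjusted p = 0.00082), with proliferating 3 several times above proliferating 1 and 2.

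Chromosome 10 stood out when genes were grouped by position. Its 659 tested genes had a median log2 difference of 0.38, about 1.30-fold, whereas the other autosomes and the X, 19 in all, had medians between -0.041 and 0.058. Against the mean of the proliferating libraries the chromosome 10 median was 0.32, 0.53 and 0.34 in immortalized 1, 2 and 3, and -0.0050, 0.018 and 0.0020 in proliferating 1, 2 and 3. In no immortalized library did another of these chromosomes pass 0.073. On chromosome 10, 47.0% of tested genes were called higher and 11.2% lower, against 16.6% and 18.0% of the 12830 genes elsewhere. In each of 13 bins of 10 Mb along the chromosome the median was positive, between 0.27 and 0.55. The median was 0.39 without proliferating 3, 0.33 without immortalized 2 and 0.32 without both. Exact permutation of the 6 library medians gave p = 0.1 (two-sided), the smallest possible. Chromosome 10 was picked for its difference in these same libraries, so this p-value adds no support.

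The MG132 libraries, which share no library with the DMSO contrast but come from the same originating pool of cells, showed the chromosome again. Whether their immortalized cells came from a separate transduction is not stated. The median for chromosome 10 was 0.26, 0.32 and 0.27 in the immortalized MG132 libraries against the mean of the proliferating MG132 libraries, and the other 19 chromosomes had contrast medians between -0.089 and 0.048. Against the proliferating DMSO mean, senescent DMSO libraries had 0.19, 0.063 and 0.079, and quiescent ones 0.015, 0.11 and 0.058. Stat2, Prim1, Timeless, Cdk1, Cdk2, Apaf1 and Sesn1, all called higher, lie on chromosome 10, and so do Igf1, Dcn and Timp3, called lower. Of the 3 targets of p53 that rose, 2 are therefore on this chromosome, and so is Mdm2, which did not pass the test. Whether the number of copies of the chromosome differed was not tested, since no DNA was measured.

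**Figure D3:**
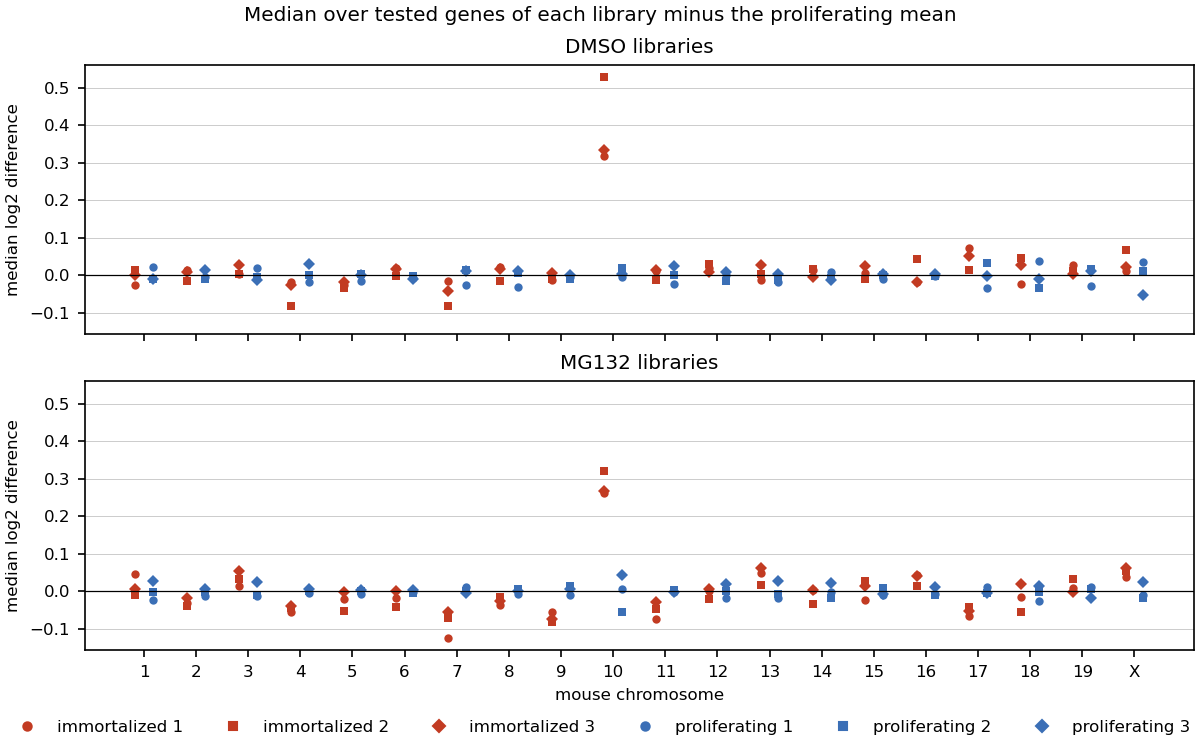
Median over tested genes, by mouse chromosome (horizontal axis), of each library's log2 level minus the mean of the proliferating libraries under the same treatment, for immortalized (red) and proliferating (blue) libraries in DMSO (top) and MG132 (bottom). Chromosome 10 stands at 0.32 to 0.53 in the immortalized DMSO libraries, and no other chromosome of these passes 0.073 in any of them.

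Genes of protein quality control depended on proliferating 3. Of 32 proteasome subunit genes, 3 rose with all libraries and 28 without proliferating 3, and 0 fell in either fit (limma). The 3 rises were a share below the 18.0% over all tested genes. With TPM as deposited, 10 rose. The list mean was 7.58, 7.42 and 7.67 in immortalized and 6.94, 7.12 and 7.80 in proliferating libraries, so that proliferating 3 exceeded all immortalized libraries and the other pair lay below them. Of 21 targets of heat shock factor 1, 3 rose and 3 fell with all libraries, both below the shares over all tested genes (18.0% and 17.7%). Without proliferating 3, 13 rose and 2 fell, in a fit that called 2253 genes higher and 2236 lower. Hspa1a, the inducible HSP70, had 24.4, 17.4 and 78.8 TPM in immortalized and 4.87, 7.16 and 109.8 TPM in proliferating libraries (log2 difference 0.92, adjusted p = 0.4), and was called higher without proliferating 3 (adjusted p = 0.0071). Hspb1, a small heat shock protein gene, had 328, 189 and 530.4 TPM in immortalized and 778, 810.2 and 4268 TPM in proliferating libraries (log2 difference -2.12, adjusted p = 0.0033), lower in every immortalized library. Of 25 targets of the antioxidant factor NRF2, 6 rose with all libraries, a share not far from the 18.0% over all tested genes, and 15 without proliferating 3. Gsr, glutathione reductase, had 371, 399.6 and 439.5 TPM in immortalized and 122, 105 and 157 TPM in proliferating libraries (log2 difference 1.66, adjusted p = 6.9e-08) and was called with or without that library.

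**Figure D4:**
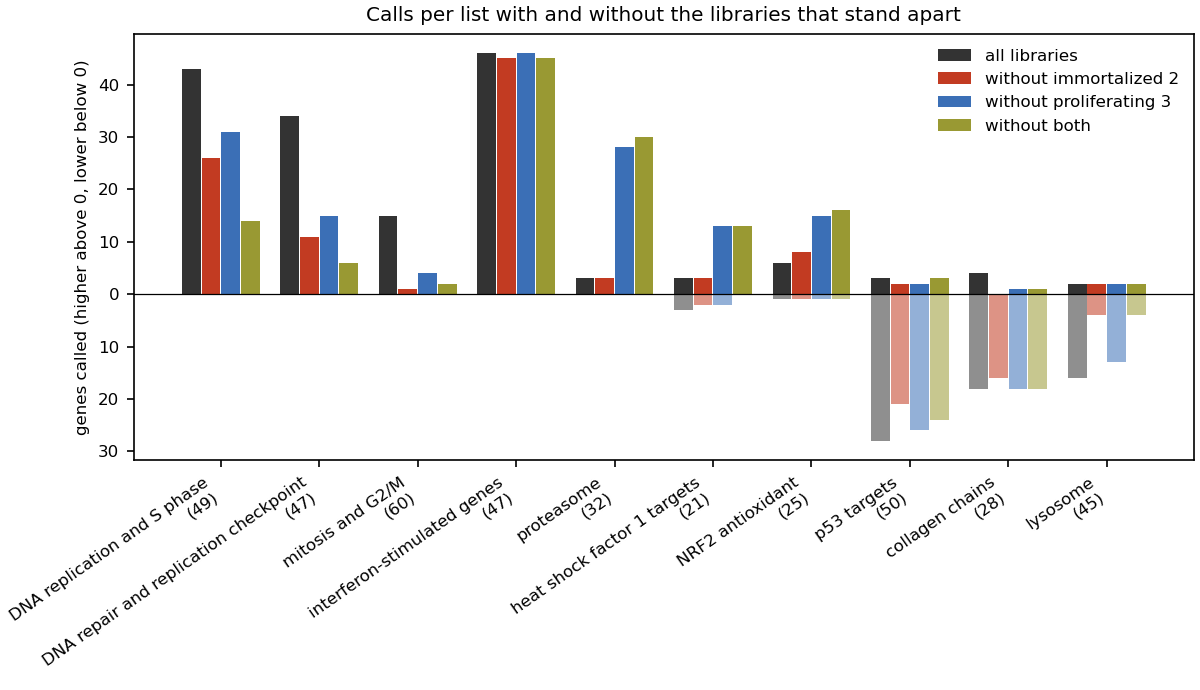
Number of genes of 10 lists called higher (above 0) or lower (below 0) in immortalized cells, relative to proliferating ones, with all libraries, without immortalized 2, without proliferating 3 and without both (number tested in brackets). Calls of interferon-stimulated genes stay between 45 and 46, those of S phase run between 43 and 14, and those of the proteasome between 3 and 30.

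Under MG132 the same contrast of cell-states called 2395 genes higher and 2393 lower, 17.8% and 17.7% of those tested. With TPM as deposited these counts were 1345 and 2992, and the median over all genes then was -0.13. Of the 2434 genes higher in DMSO, 1069 (43.9%) were also higher in MG132 and 68 were lower, and of the 2385 lower in DMSO 1080 (45.3%) were also lower and 109 higher. A test of the difference between the contrasts called 421 of the higher and 549 of the lower genes, and 1558 of all 13489 tested. Genes called in DMSO are picked for a difference there, which alone makes a smaller one in MG132 likely. Of replication genes 41 of 49 were higher in MG132, and of mitotic genes 34 of 60. Of the interferon-stimulated genes, 38 were higher and 1 lower at a median of 1.03, against 2.44 in DMSO. Their mean in immortalized MG132 libraries was 4.37, 4.24 and 4.41, below the 4.58, 5.65 and 5.07 of immortalized DMSO libraries, and their mean in proliferating MG132 libraries was 3.07, 2.94 and 3.52, above the 2.24, 2.21 and 2.86 of proliferating DMSO libraries. Targets of p53 had 11 falls and 10 rises. Early response genes of the AP-1 class turned round as a count, with 14 of 19 higher and 0 lower in MG132, where DMSO had 2 higher and 7 lower. Junb had a log2 difference of 0.89 in MG132 and -1.5 in DMSO.

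**Figure D5:**
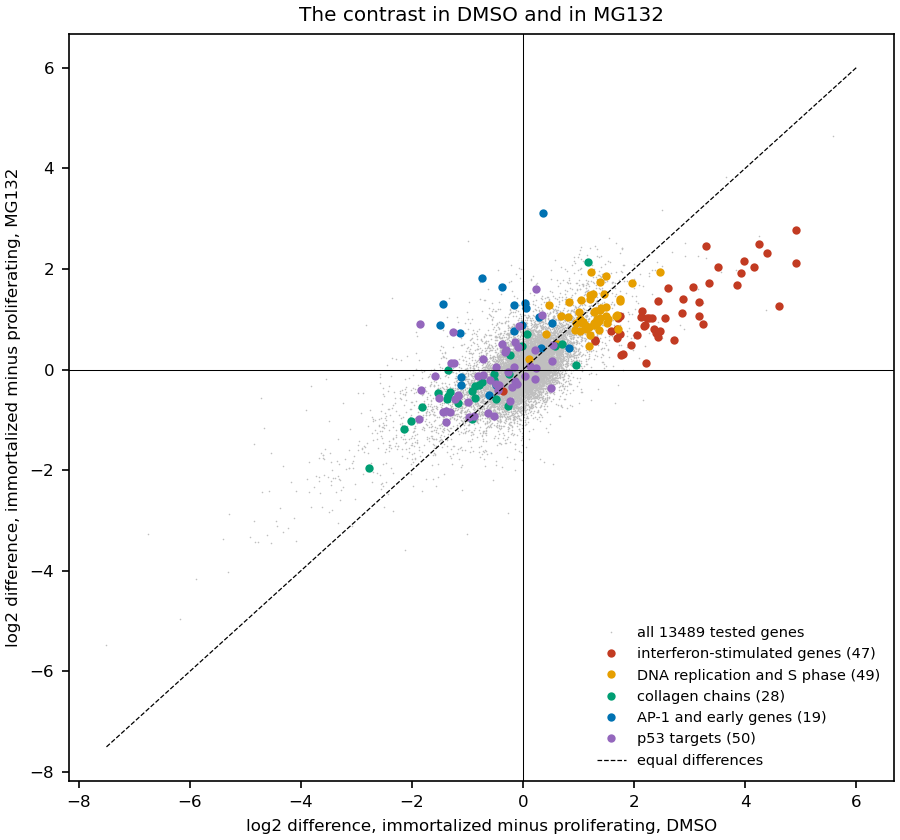
Log2 difference of immortalized minus proliferating fibroblasts in DMSO (horizontal) and in MG132 (vertical) for 13489 tested genes, with 5 gene lists in colour and a dashed line of equal differences. The interferon-stimulated genes have medians of 2.44 in DMSO and 1.03 in MG132.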

How the data were processed

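Poly(A) RNA of mouse fibroblasts was measured in 24 libraries, 3 in each of 8 groups. The authors trimmed reads with Cutadapt, quantified them with kallisto on GRCm38 transcripts and scaled them to a spike-in with RUVg, per the methods; the submitters' processing notes list HISAT2, StringTie and edgeR with cutadapt and FastQC, and the sources leave unsaid which set of tools the values come from. The authors deposited TPM, spike-in normalized counts per gene length set to 1000000 per library, which keep no depth and no global change in RNA. TPM were divided by median-of-ratios factors over 13243 genes, and log2(value + 1) was fitted with limma 3.58.1 (R 4.3.3, mean-variance trend, 8 groups, 16 residual degrees of freedom) for genes with at least 1 TPM in at least 3 libraries. A fold change is on that scale, which understates changes of low genes. The p-values were Benjamini-Hochberg adjusted within each contrast. The fit was tested on simulated data.

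The members, 36 gene lists and 7 marker lists were chosen with earlier results of these data known. Named genes were the 15 largest rises and falls that were called, did not overlap between groups and reached 10 TPM in a group, up to 2 called rises and 2 falls per list, and the T antigen partners; others, Col1a1 and Mki67 among them, were chosen after their values were seen, and a few are not reported here. Positions are those of GENCODE vM21. Figures used matplotlib 3.10.9. Alternatives were other scalings, pseudocounts, filters, sets of libraries, a replicate block and leaving out libraries.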

Additional observations from a re-analysis of the deposited data

Results flagged for a closer look

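The immortalized minus proliferating difference itself differed between MG132 and DMSO for 42 of 173 named genes (limma, test of the difference, adjusted p under 0.05). Over all tested genes the same test called 1558 of 13489. Many named genes were chosen as the largest rises or falls in DMSO, and that choice alone makes a smaller difference in MG132 likely. Each value is the log2 difference in MG132 minus that in DMSO, so a negative one means a difference less positive or more negative in MG132. Among interferon and antigen presentation genes it was -2.79 for Isg15, -3.34 for Usp18, -2.07 for Rtp4, -3.20 for Nlrc5, -1.76 for Irf7, -2.11 for Oasl2, -1.83 for Ifit1, -2.01 for Ifit3 and -2.17 for Bst2, and -2.09 for Stat2, -1.20 for Irf9, -1.03 for Psmb9 and -0.68 for Tap1, all with a smaller positive difference in MG132. Among matrix, secreted and contractile genes it was 3.48 for Cxcl14, 3.36 for Cemip, 4.16 for Prg4, 2.26 for Igfbp4, 3.51 for Il11, 2.87 for Ccl7, 1.35 for Tgfb1 and 3.72 for Timp3, and 2.75 for Thbs1, 1.47 for Lox, 1.43 for Mmp9, 2.16 for Mylk, 1.45 for Myh11 and 2.25 for Ankrd1. Among genes of the p53 network and the cell cycle it was 0.55 for Mdm2, 1.39 for Cdkn1a, 1.36 for Cdkn2b, 0.66 for Ccnd2, -0.88 for Sesn1, -1.42 for Ung and 0.82 for Bcl2l1. Among early response and MAPK feedback genes it was 2.39 for Junb, 2.74 for Nr4a1 and 2.16 for Spry1. The remaining values were -2.33 for Gsr and -0.79 for Txnrd1, both targets of NRF2, -0.61 for Lss and -1.03 for Dhcr7, both enzymes of cholesterol synthesis, and -0.73 for Hoxa9. Some genes were called in both contrasts with opposite signs. Examples, in DMSO and then MG132, are Nr4a1 at -1.44 and 1.30, Thbs1 at -1.85 and 0.90, Junb at -1.50 and 0.89, and Gsr at 1.66 and -0.67. The cause of these differences was not tested.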

How the results depend on the processing

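Counts of higher genes fell to 970 when only the 6 libraries compared were fitted, 1510 with only the 12 DMSO libraries, and 1561 with a replicate block over the 6 libraries. Counts of lower genes fell to 1403 with only the 6 libraries and to 1734 with the block over them. Both counts were thus larger with the block than in the fit of the same 6 libraries without it. Of the 970 and 1403 genes, 957 and 1394 were among the calls of the full fit. Leaving out 1 DMSO library gave 1388 to 2420 higher and 1708 to 2249 lower genes, both lowest without immortalized 2. Leaving out 1 MG132 library gave 1497 to 2140 higher and 1552 to 2150 lower genes in that contrast, and TPM as deposited gave 1345 higher. The chromosome 10 median was 0.12 with no filter on low genes, where genes near 0 enter it, and 0.33 to 0.43 with a library left out. The TPM share of heat shock factor 1 targets, -0.11 percentage points with all libraries, ran from -0.30 to 0.26 with a library left out and turned positive without proliferating 3. The replicate block over all 24 libraries gave 2417 higher and 2364 lower genes. Deviations of same-numbered libraries correlated at -0.26, 0.37 and 0.57, so the numbers were not taken to pair the samples, and not every library correlated best with its own number. Of 160 called named genes, 108 stayed called under all 20 settings and 0 turned direction (limma). The most calls were lost with only the 6 libraries (38), without both libraries that stood apart (37) and without immortalized 2 (28). TPM keeps no depth, so no counting limit can be given for low genes.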

Other observations

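Of 27 tested HOX genes, which keep a fibroblast's place along the body, 4 rose and 3 fell, both below the shares over all tested genes (18.0% and 17.7%). Hoxa9 had 6.42, 6.87 and 6.14 TPM in immortalized and 2.95, 3.28 and 3.50 TPM in proliferating libraries (log2 difference 0.80, adjusted p = 7.3e-05). Of 17 imprinted growth genes, 2 rose, again below that share, and 6 fell. Meg3 and Rian, noncoding RNAs of a single imprinted cluster on chromosome 12, had 46.4, 11.9 and 65.0 TPM in immortalized and 512, 532 and 260.5 TPM in proliferating libraries for Meg3 and 41.1, 12.2 and 55.3 TPM in immortalized and 361, 322 and 561 TPM in proliferating libraries for Rian. Their groups were far apart, with immortalized 2 lowest. Of 32 genes of ribosome biogenesis and MYC targets, 16 rose and 0 fell (limma), led by Utp20 and Tfrc at 1.15 and 1.14, but 5 were called without immortalized 2 and 3 when only the 6 libraries compared were fitted.

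Genes of the lysosome depended on immortalized 2 in the other direction, with 16 of 45 lower with all libraries and 4 without immortalized 2. The latter fit called 1708 genes lower, so its lysosome count was a smaller share than that over all genes. Ctsh, a lysosomal protease, had 28.0, 7.07 and 30.3 TPM in immortalized and 131, 116 and 256 TPM in proliferating libraries (log2 difference -3.02, adjusted p = 9.7e-05).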
